A study of Homo sapiens with 6 samples.

Results

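Myoglobin (MB, Entrez 4151) and cytoglobin (CYGB, Entrez 114757) were 2 of the 21776 human genes in the deposited count table, and they were picked out by their gene symbols for how they stood between hypoxia and normoxia. Their values between these conditions are therefore given as a description, with a fold change and its standard error (SE) but with no test. The cells were SCC25, an established line from a human oral squamous cell carcinoma, with the genotype given as WT. In the hypoxia group the cells were kept for 12 h in 1% O2 and 5% CO2 with the balance N2, and in the normoxia group for 12 h in 5% CO2 and air. RNA-seq was run on 3 libraries of each group (n = 3 throughout), with total counts between 29637189 and 37278703 per library. The labels do not say whether the libraries of a group came from separate cultures, so every p-value measures only the spread between these libraries, which may be technical.

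MB and CYGB belong to the globins, small proteins that hold a heme group and bind oxygen at its iron. Myoglobin is best known from heart and skeletal muscle, where it stores oxygen and carries it to the mitochondria, and it can also scavenge or produce nitric oxide. Cytoglobin is found at low levels in many tissues, above all in fibroblast-like cells, and is known for nitric oxide removal and for protection against oxidative stress. Both need heme from the cell's own synthesis pathway, and both must be returned from the ferric to the ferrous form to bind oxygen again. The deposited Gene Ontology terms (12 for MB and 20 for CYGB) shared 6 entries, which were response to hypoxia, oxygen carrier activity, oxygen transport, oxygen binding, heme binding and cytosol.

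The labels of the cells and of the treatment were checked against marker lists. Of 14 squamous epithelial genes, 13 had enough reads to be tested, and between the conditions 8 of them were called higher and 4 lower, where 77.8% of all tested genes were called, 39.2% higher and 38.5% lower. LAMB3, a laminin chain of the epithelial basement membrane, was the most abundant at 888.5 CPM ± 54.76 (SD) in normoxia. KRT5, a basal keratin, lay at 126.1 CPM ± 9.896, whereas its partner KRT14 had a single read over the 6 libraries. KRT6A, a keratin of activated epidermis, was lower in hypoxia, at 0.9508 ± 0.4912 against 16.49 ± 3.862 CPM (log2 fold change −4.12, SE 0.246, adjusted p = 7.479e-11). CPM is the number of reads of a gene per 1000000 reads of the library, after the totals were scaled by trimmed means of M-values (TMM). All 15 genes of a hypoxia response list rose in hypoxia, with a median log2 fold change of 2.71 beside 0.023 over all tested genes. VEGFA, the angiogenic growth factor, rose from 184.1 ± 18.72 to 1278 ± 65.68 CPM (log2 fold change 2.80, SE 0.070, adjusted p = 4.251e-15, edgeR). CA9, a membrane carbonic anhydrase, rose from 42.39 ± 22.03 to 277.2 ± 15.43 CPM (log2 fold change 2.71, SE 0.208, adjusted p = 2.027e-09).

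In GRCh38 with the GENCODE v29 annotation, MB spans chr22:35606764-35637951 on the minus strand with 10 transcripts, and none of its exon bases are shared with another annotated gene. The RefSeq table of GRCh38.p14 gave 3 start sites for MB. The 250 bases upstream of each are shown because MB was one of the genes with the largest rise in these libraries. They are written 5′ to 3′ on the minus strand, with capitals marking the letters TATAA (the core of a TATA box) and TATTTTTA (an A/T-rich element of the kind that MEF2 factors bind), and they lie at chr22:35623355-35623604, chr22:35622530-35622779 and chr22:35622203-35622452.
MB start 1: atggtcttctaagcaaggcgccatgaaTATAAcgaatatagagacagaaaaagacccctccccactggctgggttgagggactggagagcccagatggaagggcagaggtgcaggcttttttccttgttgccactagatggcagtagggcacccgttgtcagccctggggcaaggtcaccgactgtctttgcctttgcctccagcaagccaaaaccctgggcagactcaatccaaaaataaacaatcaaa
MB start 2: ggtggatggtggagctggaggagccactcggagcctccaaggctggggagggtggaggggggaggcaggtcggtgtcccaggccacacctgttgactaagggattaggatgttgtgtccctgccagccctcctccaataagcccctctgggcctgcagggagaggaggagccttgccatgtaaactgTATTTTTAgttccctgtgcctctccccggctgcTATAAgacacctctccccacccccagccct
MB start 3: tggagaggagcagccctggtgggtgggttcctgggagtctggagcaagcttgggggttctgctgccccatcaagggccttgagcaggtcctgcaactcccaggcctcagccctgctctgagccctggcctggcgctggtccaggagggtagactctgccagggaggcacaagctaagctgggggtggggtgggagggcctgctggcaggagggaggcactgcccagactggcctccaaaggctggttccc

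Both marked motifs stood together only in the window of start 2, with TATAA beginning 30 bases and TATTTTTA 63 bases before the start. In the window of start 1, TATAA began 223 bases before the start, and start 3 held neither. The letters ACGTG and GCGTG, the core that HIF factors bind, were not in any of the 3 windows. The GENCODE v29 span of MB reaches chr22:35637951, upstream of all 3 windows, and sequence outside the windows was not searched. In the windows of starts 1 and 2, 47 and 32 bases lay within GENCODE exons of MB. Whether a HIF core lies elsewhere at MB was therefore not tested. On both strands, 18.9% of 35116 windows of the same length before RefSeq starts held TATAA and 2.09% held TATTTTTA. ACGTG or GCGTG was in 43.2% of them. GC content was 51.6%, 61.6% and 66.8% in starts 1, 2 and 3. These motifs were chosen after the windows had been read, and a match describes letters only.

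MB was barely read in normoxia and plainly present in hypoxia. Its reads numbered 521, 686 and 679 in hypoxia libraries 1, 2 and 3, against 10, 6 and 6 in normoxia libraries 1, 2 and 3. Scaled to depth these were 17.06, 18.44 and 20.93 CPM in hypoxia and 0.2687, 0.2097 and 0.2028 CPM in normoxia. The groups lay far apart, and every hypoxia library stood high. Across all 14255 tested genes, the groups did not overlap for 80.5%, with hypoxia above for 40.6% and below for 39.9%, so a gap alone is common in these libraries. The mean was 18.81 ± 1.958 CPM (SD, n = 3) in hypoxia and 0.2271 ± 0.03623 CPM in normoxia, a ratio of means of 82.8. The log2 fold change of the fit over all genes was 6.33 (SE 0.196), which placed MB 19th of the 14255 tested genes when ranked from the highest fold change down. MB had enough reads to be tested only through its hypoxia libraries, which favoured a high rank. A fold change of at least 1 on the log2 scale with an adjusted p under 0.05 was found for 30.4% of tested genes. The normoxic level rested on 22 reads in all, with an exact 95% Poisson interval of 13.79 to 33.31, whereas the hypoxic level rested on 1886 (1802 to 1973). These intervals cover counting error only. In bulk RNA, more cells with MB and more MB RNA per cell cannot be told apart.

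Library 1 to 3 of one group differed little for MB. The coefficient of variation of its CPM was 10.4% in hypoxia and 16.0% in normoxia, and its biological coefficient of variation in the fit was 0.0932, against a median of 0.0714 over all genes. Per transcript length, MB lay at 9.664, 10.65 and 11.78 FPKM (reads scaled by gene length and library total) in hypoxia and at 0.1502, 0.1134 and 0.1121 FPKM in normoxia. By mean FPKM, 79.9% of the 21776 genes lay below MB in hypoxia and 38.4% in normoxia. MB so moved up the order of levels without reaching its top.

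CYGB was low in both conditions. Its reads numbered 25, 42 and 14 in hypoxia and 53, 28 and 25 in normoxia. These were 0.8188, 1.129 and 0.4315 CPM in hypoxia against 1.424, 0.9785 and 0.8451 CPM in normoxia, and the groups overlapped, since hypoxia 2 lay above normoxia 2 and 3. Mean levels were 0.7931 ± 0.3496 CPM in hypoxia and 1.083 ± 0.3033 CPM in normoxia. The log2 fold change was −0.45 (SE 0.389), about the size of its error. Leaving out single libraries moved it between −0.81, without hypoxia 2, and −0.16, without hypoxia 3. The coefficient of variation was 44.1% in hypoxia and 28.0% in normoxia, wider than for MB. Over each group CYGB had 81 reads (exact 95% Poisson interval 64.33 to 100.7) and 106 reads (86.78 to 128.2).

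**Figure D1:**
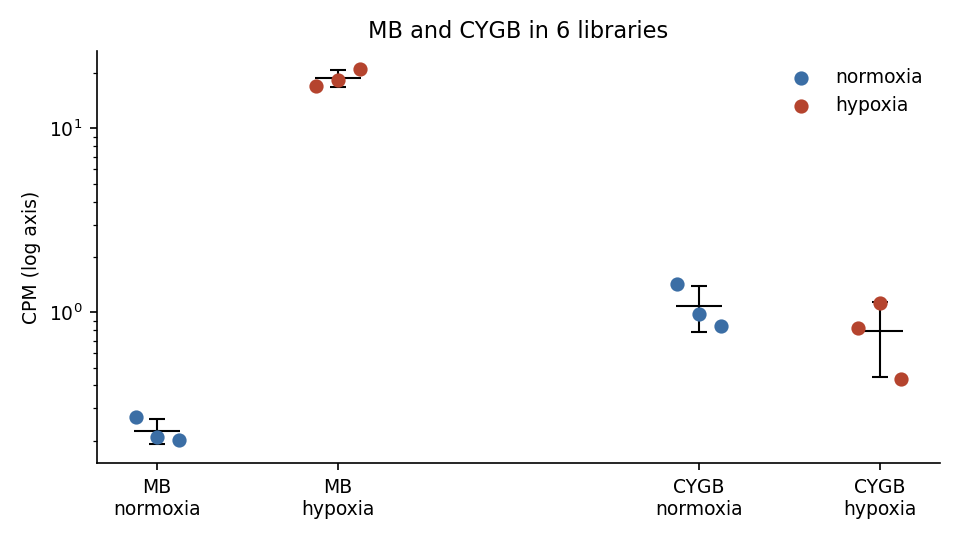
CPM on a log axis for MB and CYGB in the 3 normoxia and 3 hypoxia libraries. Points are libraries and black bars are the mean ± SD. The MB groups stand apart, at 0.2271 and 18.81 CPM on average, while the CYGB groups overlap.

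The CYGB locus adds a limit to its reading. CYGB spans chr17:76527356-76551175 on the minus strand (GRCh38, GENCODE v29, 5 transcripts). It shares 248 exon bases with PRCD, a gene of photoreceptor discs on the opposite strand, and 302 with AC015802.4, which was not used here. PRCD was read 108, 107 and 82 times in hypoxia and 9, 3 and 10 times in normoxia, and it rose (log2 fold change 3.67, SE 0.365, adjusted p = 6.176e-08). Whether the counting used strand is not given in the sources used here, so reads in the shared bases cannot be told apart. With the reads of CYGB and PRCD added up as 1 gene, the log2 fold change was 1.51 (SE 0.245), the opposite direction to CYGB alone. This direction follows from the PRCD reads, which rose and outnumbered those of CYGB in every hypoxia library. All PRCD reads were added, not only those in the shared bases, so the sum does not tell which way CYGB itself went.

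Between the 2 globins the order of levels turned over with the condition. In normoxia the FPKM of MB was 0.3981, 0.4521 and 0.5063 times that of CYGB in libraries 1, 2 and 3. In hypoxia it was 43.97, 34.46 and 102.3 times that of CYGB, and the highest ratio belonged to hypoxia 3, the library with the fewest CYGB reads. MB made up 15.9% to 19.4% of the reads of the pair in normoxia and 94.2% to 98.0% in hypoxia. Since MB was chosen for this contrast, the turnover is a description of it.

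**Figure D2:**
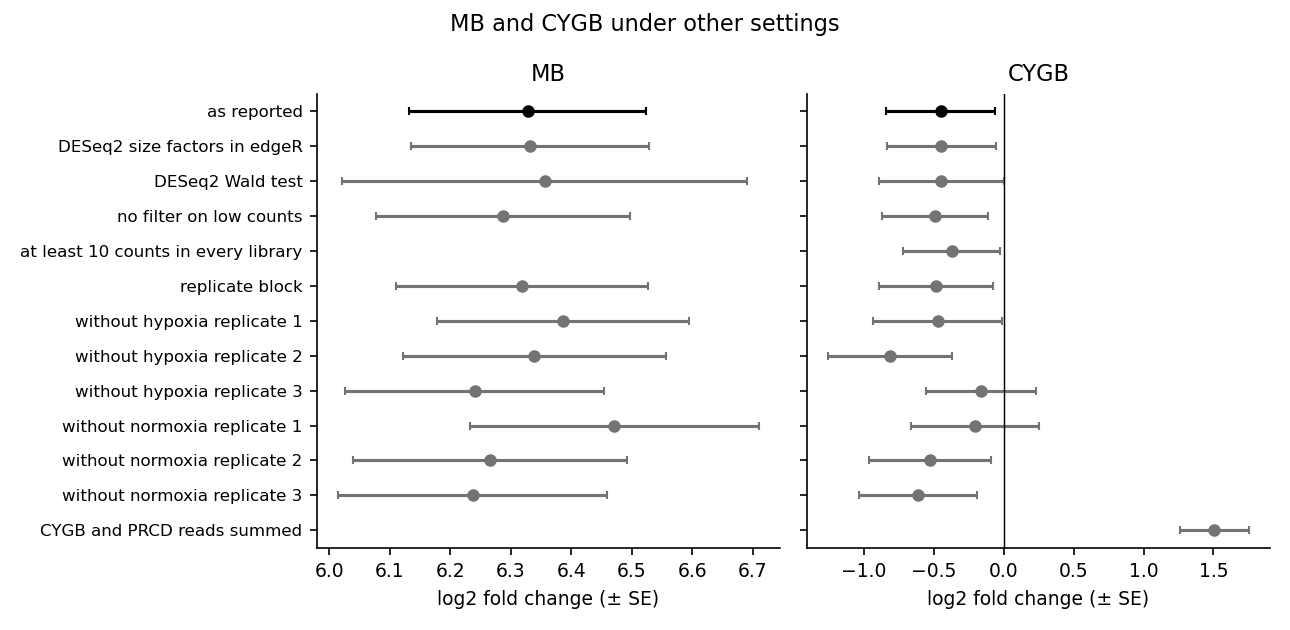
Log2 fold changes (hypoxia against normoxia, ± SE) of MB, left, and CYGB, right, as reported in black and under other settings in grey. MB stayed between 6.24 and 6.47 and has no point where 10 counts in every library were required, since it did not pass that filter. CYGB stayed below 0 except when its reads were added to those of PRCD.

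Of 12 other globin genes on a fixed list, 4 had reads, and the other 8 were not analysed here. The most abundant globin transcript in both conditions was neither MB nor CYGB but HBE1, the epsilon chain of embryonic hemoglobin. HBE1 was read 1832, 2141 and 1958 times in hypoxia and 870, 643 and 661 times in normoxia, and the groups did not overlap. Its level rose from 22.73 ± 0.5646 to 59.30 ± 1.516 CPM (log2 fold change 1.38, SE 0.063, adjusted p = 2.864e-12). This was a smaller fold than that of MB, from a much higher start. HBE1 shares 781 exon bases on its own strand with AC104389.4, which was not used here. It shares another 84 with OR51B5, an olfactory receptor gene that also rose, from 9.296 ± 0.4697 to 23.58 ± 0.8118 CPM (log2 fold change 1.34, adjusted p = 4.878e-10). Reads at these shared bases cannot be assigned from the table.

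HBG2, a gamma chain of fetal hemoglobin, was read 26, 18 and 24 times in hypoxia and 5, 3 and 16 times in normoxia. Its call (log2 fold change 1.42, SE 0.544, adjusted p = 0.025) was lost without hypoxia 1, hypoxia 3, normoxia 1 or normoxia 2, with the adjusted p between 0.0676 and 0.125. Without normoxia 3, the library with 16 reads, the log2 fold change was 2.45. Its near-identical copy HBG1 was read 5, 4 and 4 times in hypoxia and not at all in normoxia, too little to test, and reads could be split between the copies. HBG2 also shares 37 exon bases with HBE1 and 37 with OR51B5 on the same strand, and 298 and 433 with AC104389.4 and AC104389.5, which were not used here, so that its few reads cannot be told apart from theirs at these bases. HBZ, the zeta chain, had 2 reads over all libraries. HBG2 reached the test through its hypoxia reads, so its count among the calls is no support for a direction. Among all 14255 tested genes, 39.2% were called higher and 38.5% lower (77.8% in either direction).

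Set against each other per length, HBE1 made up 97.7% ± 0.9786 of the summed FPKM of the globins in normoxia and 88.7% ± 0.7256 in hypoxia. MB took 0.340% ± 0.04665 in normoxia and 9.81% ± 0.891 in hypoxia, and CYGB fell short of 1% in both (0.767% ± 0.198 and 0.198% ± 0.09209). MB was therefore the second globin by level in hypoxia. HBE1, at a mean of 96.69 FPKM against 10.70 FPKM for MB, remained far above it, with the shared bases as its limit.

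The enzymes of heme synthesis went in both directions. All 7 enzymes described here passed the test, 3 higher and 4 lower, with a median log2 fold change of −0.56. With 77.8% of all tested genes called, 39.2% higher and 38.5% lower, a full count is little above this background for so few genes. ALAS1, the first and rate-limiting enzyme, fell from 115.3 ± 7.746 to 78.27 ± 2.747 CPM (log2 fold change −0.56, SE 0.059, adjusted p = 1.46e-07). FECH, which puts iron into protoporphyrin in the last step, fell from 53.01 ± 2.643 to 23.51 ± 2.903 CPM (log2 fold change −1.18, SE 0.083, adjusted p = 6.595e-10). UROS and UROD, which act in the middle of the pathway, fell by 0.61 and 0.83 on the log2 scale. ALAD and CPOX rose by 0.70 and 0.37. PPOX, the step before FECH, had a log2 fold change of 0.28 (adjusted p = 0.0396), a call lost in 8 of 11 alternatives. Summed over these 7 enzymes the level was 376.1 ± 13.21 CPM in normoxia and 285.9 ± 9.616 CPM in hypoxia, so the sum was lower in the condition in which MB was higher.

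All 4 enzymes of heme breakdown passed, 3 higher and 1 lower, beside the same 77.8% of all tested genes. HMOX1, the inducible heme oxygenase, was read 489, 713 and 631 times in hypoxia and 216, 162 and 144 times in normoxia. It rose from 5.444 ± 0.5048 to 18.21 ± 1.906 CPM (log2 fold change 1.74, SE 0.120, adjusted p = 4.731e-10). HMOX2, the constitutive form, fell from 115.0 ± 3.468 to 54.66 ± 2.651 CPM (log2 fold change −1.07, SE 0.057, adjusted p = 1.627e-11) and was still the more abundant of the pair. BLVRA and BLVRB, which reduce biliverdin, rose by 0.55 and 0.66. The summed level of the 4 was 219.4 ± 3.081 CPM in normoxia and 222.2 ± 7.264 CPM in hypoxia, so members moved against each other within a near level sum.

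Of 14 carriers of heme, porphyrins and mitochondrial iron, 6 were called higher and 6 lower (85.7% called beside 77.8% of all tested genes), and the median of 0.01 lay by the median of all genes. SLC25A37, the mitochondrial iron importer mitoferrin-1, was the most abundant and rose from 279.0 ± 20.27 to 607.1 ± 1.323 CPM (log2 fold change 1.12, SE 0.056, adjusted p = 7.929e-12). Its relative SLC25A28, mitoferrin-2, fell by 1.34. ABCB6, a porphyrin transporter, rose by 1.62, and ABCG2, an efflux pump that also exports porphyrins, fell by 1.63. FLVCR1, a heme exporter, and SLC48A1, which moves heme out of endosomes, did not pass (adjusted p = 0.1601 and 0.1318).

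The cytochrome b5 system passes electrons from NADH and can return ferric globins, CYGB among them, to the ferrous form. None of its 7 tested genes was called higher and 5 were called lower, with a median log2 fold change of −0.33. Among all tested genes 77.8% were called, 39.2% higher and 38.5% lower. CYB5R2 fell by the most, from 4.959 ± 0.3462 to 2.191 ± 0.4092 CPM (log2 fold change −1.17, SE 0.193, adjusted p = 2.925e-05). CYB5A and CYB5B, the carrier proteins, fell by 0.34 and 0.33, and the reductase CYB5R4 by 0.34. CYB5R3, the main reductase and the most abundant member, went from 167.8 ± 4.674 to 147.7 ± 4.445 CPM (log2 fold change −0.18, adjusted p = 0.00372). That call was lost when 10 counts in every library were required (−0.11, adjusted p = 0.0622), a filter that moved the fold changes of shared genes by 0.077. CYB5R1 and CYB5RL did not pass, at 0.01 and −0.28.

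**Figure D3:**
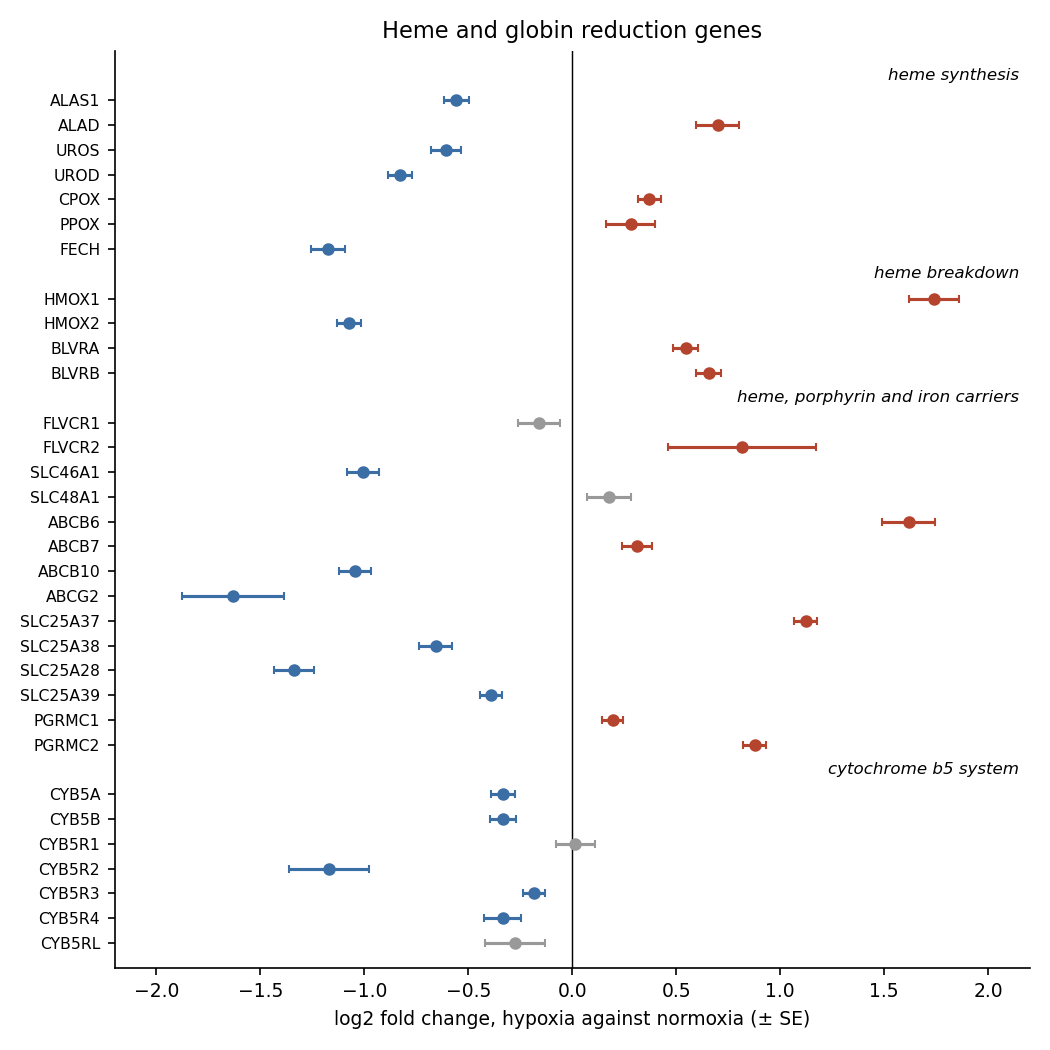
Log2 fold changes (hypoxia against normoxia, ± SE) of genes of heme synthesis, heme breakdown, heme and iron carriers and the cytochrome b5 system. Red marks genes called higher, blue genes called lower and grey genes that did not pass. Synthesis and carriers fall on both sides of 0, HMOX1 and HMOX2 lie on opposite sides, and no gene of the cytochrome b5 system is red.

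Nitric oxide is a substrate of both globins. Of 6 tested genes of its synthesis, sensing and removal, 3 were called higher and 2 lower, or 83.3% beside 77.8% of all tested genes. NOS3, the endothelial synthase, rose by 1.83 (SE 0.591, adjusted p = 0.00953) but stayed under 1 CPM on average. Its normoxia reads were 20, 2 and 1, and without normoxia 1 the log2 fold change was 3.91. DDAH2, which removes an inhibitor of the synthases, rose from 8.464 ± 2.135 to 29.97 ± 1.572 CPM, while its relative DDAH1 fell by 0.77. GUCY1A1, a subunit of the nitric oxide sensor guanylate cyclase, was read 3, 1 and 3 times in hypoxia and 26, 26 and 15 times in normoxia (log2 fold change −3.26, SE 0.585, adjusted p = 7.146e-05). NOS3 passed the filter on low counts through its hypoxia reads and GUCY1A1 through its normoxia reads, so these 2 of the 5 calls had their direction favoured by it. ADH5, which breaks down nitrosylated glutathione, did not pass (−0.11, adjusted p = 0.0785).

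Myoglobin also binds fatty acids, and fatty acid binding proteins are its usual company in muscle. FABP3, the heart and muscle form, rose from 0.1598 ± 0.1913 to 2.054 ± 0.3462 CPM (log2 fold change 3.67, SE 0.531, adjusted p = 6.46e-06). Its normoxia reads were 4, 0 and 11, and without normoxia 3 the log2 fold change was 5.00. FABP6 rose by 2.56 (adjusted p = 7.459e-05), on 5, 5 and 4 reads in normoxia. Both passed the filter on low counts through their hypoxia reads, which favoured a call in this direction. FABP5, the epidermal form and by far the most abundant of the 3 tested, fell from 36.23 ± 2.203 to 14.74 ± 1.561 CPM (log2 fold change −1.30, SE 0.088, adjusted p = 3.982e-10).

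Of 14 tested transcription regulators known from the MB and CYGB promoters, 9 rose and 5 fell, with a median log2 fold change of 0.28, where 77.8% of all tested genes were called and 39.2% called higher. FOS and JUN, the subunits of AP-1, rose by 3.55 and 1.90. NFATC4, a calcineurin-dependent factor, rose from 3.510 ± 2.238 to 38.12 ± 3.229 CPM (log2 fold change 3.46, SE 0.226, adjusted p = 2.318e-10), and by 4.07 without normoxia 3. EPAS1, the alpha subunit of HIF-2, rose from 104.5 ± 9.836 to 276.1 ± 12.93 CPM (log2 fold change 1.40, SE 0.065, adjusted p = 3.485e-12), and ARNT, the partner of both alpha subunits, rose by 0.61. HIF1A, the oxygen-regulated subunit of HIF-1, fell from 320.3 ± 14.68 to 66.97 ± 10.36 CPM at the RNA level (log2 fold change −2.26, SE 0.083, adjusted p = 2.076e-13). NFATC3 fell by 0.885, CREBBP by 0.509 and ESRRA by 0.462. SP3 fell by 0.157, a call lost in some alternatives. MEF2A and MEF2D, the widely expressed MEF2 genes, rose by 0.71 and 0.30, to 38.38 ± 3.577 and 45.85 ± 0.9716 CPM. MEF2C, the muscle-enriched MEF2 gene, and PPARGC1A, a coactivator of the oxidative program of muscle, had too few reads to test. The RNA of a factor does not give its protein or its activity.

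Because MB is a muscle gene and CYGB a gene of fibroblast-like cells, markers of these and of red cells were read in the same libraries. Of 22 striated muscle markers, 12 had reads and 10 were not analysed here. Enough reads to test were found for 4, and each was called higher, beside 39.2% of all tested genes. They were TNNT3 (log2 fold change 4.41), TNNC1 (2.86) and TNNT1 (2.04), all subunits of troponin, and RYR1 (1.56), the calcium release channel of skeletal muscle. TNNT3, TNNC1 and RYR1 passed the filter on low counts through their hypoxia reads, so their direction was favoured by it, and with 10 counts required in every library only TNNT1 was tested. TNNT1, the slow skeletal troponin T, was the most abundant at 65.53, 67.00 and 72.39 CPM in hypoxia against 15.42, 12.58 and 22.04 CPM in normoxia. The summed level of the list was 70.12, 73.77 and 79.08 CPM in hypoxia and 16.55, 13.32 and 23.29 CPM in normoxia. The defining sarcomere and filament genes ACTA1, DES, MYH1, MYL2 and TTN had no more than 10 reads in any library, with DES, MYH1 and MYL2 at 0 in all 3 hypoxia libraries.

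Of 13 markers of fibroblasts, pericytes and stellate cells, 6 were tested, of which 4 were called higher and 1 lower (83.3% called beside 77.8% of all tested genes). CSPG4, a pericyte proteoglycan, rose by 3.05, and COL1A1, a fibrillar collagen chain, rose from 3.761 ± 1.174 to 17.97 ± 2.023 CPM (log2 fold change 2.26, SE 0.165, adjusted p = 1.022e-09). CSPG4 had 2, 4 and 5 reads in normoxia and passed the filter through hypoxia, which favoured its direction. LRAT, the stellate cell enzyme that stores retinol, fell by 0.89. ACTA2, smooth muscle actin, was the most abundant at 16.74 ± 0.6446 and 27.43 ± 0.6134 CPM. PDGFRB, a receptor of pericytes, did not pass (0.96, adjusted p = 0.0507). The summed level was 27.28, 27.89 and 28.26 CPM in normoxia and 55.94, 51.70 and 49.93 CPM in hypoxia, while the groups overlapped for CYGB. Among matrix genes too low to test, DCN and COL3A1 averaged under 0.1 CPM in both conditions. COL1A2 averaged 0.1804 CPM in hypoxia and 0.08321 CPM in normoxia. LUM averaged 0.4576 ± 0.3695 CPM in hypoxia and 0.04314 ± 0.02157 CPM in normoxia, on 27, 9 and 8 against 1, 1 and 2 reads. The part of these lists in the values of MB and CYGB was not tested.

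Of 11 erythroid markers, 5 had reads and 6 were not analysed here. EPOR, the erythropoietin receptor, rose by 1.55 (adjusted p = 1.311e-07), and TFRC, the transferrin receptor that most growing cells use, fell by 0.19. ANK1, the red cell ankyrin, did not pass (adjusted p = 0.0701). The list summed to 1300, 1353 and 1271 CPM in normoxia and 1179, 1123 and 1159 CPM in hypoxia, nearly all of it TFRC. SLC4A1, the red cell anion exchanger, and AHSP, the chaperone of alpha globin, had no more than 2 reads in any library, whereas ANK1 had 130 to 280 reads per library. The part of this list in the values of HBE1 was not tested.

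The terms that MB and CYGB share in the deposited annotation were then followed across their other genes. Of 117 tested genes annotated to the response to hypoxia, 62 (53.0%) were called higher and 34 lower. Among 71 tested heme binding genes, 35 (49.3%) were called higher and 23 lower, with a median log2 fold change of 0.20. Both shares of higher calls lay above the 39.2% of all genes, which is given beside them without a test. Members such as TH and ABAT (response to hypoxia) and CYP26A1 and CYP4F12 (heme binding) passed the filter on low counts through hypoxia reads. This favoured their higher calls, while GUCY1A1, a heme binding gene called lower, passed through its normoxia reads. The broad term cytosol went the other way, with 34.3% of 4424 tested genes called higher and 47.1% lower. Over all tested genes 38.5% were called lower and 77.8% in either direction. Of 7 tested oxygen binding genes, 5 were called higher and 1 lower. Of these 5, CYP26A1, TH and HBG2 passed the filter on low counts through their hypoxia reads, which favoured their direction. Oxygen transport (2 higher and 1 lower) and oxygen carrier activity (2 higher) rested on HBE1, HBG2 and BPGM. The HBG2 call was also lost without some single libraries, as given above. CYP26A1, a heme enzyme that clears retinoic acid, was read 1098, 1696 and 1506 times in hypoxia and 12, 1 and 4 times in normoxia. PTGS1, the heme enzyme cyclooxygenase 1, rose from 0.7738 ± 0.2229 to 26.15 ± 4.126 CPM (log2 fold change 5.10, SE 0.182, adjusted p = 1.66e-13). These 2 enzymes, like MB, were low in every normoxia library and high in every hypoxia library. CYP1A1, an enzyme of xenobiotic breakdown, fell from 121.6 ± 13.75 to 45.15 ± 5.614 CPM (log2 fold change −1.43, SE 0.086, adjusted p = 8.352e-11). BPGM, the enzyme that makes the oxygen-affinity regulator of hemoglobin, fell by 0.35.

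On chromosome 22, the gene order of RefSeq places RASD2 and the long noncoding RNA LOC107985590 next to MB on one side. RASD2, a small GTPase of the Ras family, was read 625, 892 and 726 times in hypoxia and 30, 11 and 41 times in normoxia, and it rose (log2 fold change 4.69, SE 0.210, adjusted p = 2.232e-12). LOC107985590 was read 12, 25 and 22 times against 2, 1 and 2 times and rose by 3.39 (SE 0.621, adjusted p = 8.725e-05). On the other side, LOC284912 had 2 reads in all, and APOL6, an apolipoprotein L gene, rose by 0.38. HMOX1, the heme oxygenase described above, is the fifth gene on the RASD2 side. Between RASD2 and HMOX1 lies MCM5, a replication helicase subunit, which fell by 1.02. RBFOX2, a splicing factor beyond APOL6, rose by 0.66. LOC107985590 passed the filter on low counts through its hypoxia reads, and the other 5 tested neighbours of MB were called too, where 77.8% of all tested genes were.

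Around CYGB, 3 of 5 tested neighbours were called higher and 2 lower, where 39.2% and 38.5% of all tested genes were. RHBDF2, an inactive rhomboid protein that directs growth factor shedding, lies next to it and rose from 39.20 ± 1.829 to 88.20 ± 1.454 CPM (log2 fold change 1.17, SE 0.058, adjusted p = 7.713e-12). On the other side lies PRCD, which rose by 3.67 and passed the filter on low counts through its hypoxia reads, followed by the noncoding RNA SNHG16, which fell by 0.85. UBE2O, a ubiquitin-conjugating enzyme, rose by 0.34. SPHK1, the kinase that makes sphingosine 1-phosphate, fell by 1.87. CYGB, at −0.45, lay between 2 neighbours that were called higher.

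Among the genes whose 6 log2 CPM values lay closest to those of MB, by Euclidean distance after each of 14254 other tested genes was centred on its mean, were SEMA5B (distance 1.133), ALDH3B2 (1.146), LINC00482 (1.210) and HILPDA-AS1 (1.286). SEMA5B, an axon guidance semaphorin, was read 81, 118 and 87 times in hypoxia and 0, 0 and 1 times in normoxia. ALDH3B2, an aldehyde dehydrogenase, went from 0.1388 ± 0.03077 to 7.742 ± 1.555 CPM. SEMA5B, ALDH3B2 and LINC00482 passed the filter on low counts through their hypoxia reads. The log2 CPM values carry a prior count of 2, which weighs on their normoxia values. Since MB was chosen for this contrast, closeness to MB largely repeats the contrast and is no support for it. The closest genes to CYGB were KCNAB3 (0.310), ZNF726 (0.323), STARD7-AS1 (0.462), LOC100507634 (0.486) and CA5BP1-CA5B (0.545). KCNAB3, a potassium channel subunit, was read 35, 46 and 20 times in hypoxia and 76, 39 and 33 times in normoxia, lowest in hypoxia 3 and highest in normoxia 1 as CYGB was. Each distance rests on the same 6 libraries, 3 of each condition, and describes these libraries only.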

How the data were processed

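The authors deposited raw read counts per gene for 6 SCC25 libraries, and FPKM that they made from these counts, gene lengths and library totals. With 1 whole-number length per gene, itself implied by the FPKM, counts and library totals matched the FPKM within a relative 1e-05 for 21775 of 21776 genes. The submitters' processing notes name only the mouse builds GRCm38 and mm10, although the genes carry human symbols and Entrez identifiers. The aligner, counter, annotation and strand setting are not given in the sources used here. The study's text names the line SCC9 where it speaks of this comparison, and the labels' SCC25 was followed. No column of per-sample values was left unmapped.

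The count model was fitted in R 4.3.3 by edgeR 4.0.16 (TMM, filterByExpr, quasi-likelihood F test, condition only, all 6 libraries). P-values were adjusted by Benjamini-Hochberg over 14255 tested genes, and a gene was called at an adjusted p under 0.05. Every adjusted p in the text is from this fit unless another setting is named. On simulated data with 14245 tested genes, edgeR found 93 of 99 genes changed by a log2 fold of 1 and 99 of 99 changed by 2, and 2.04% of its calls were false. The simulation gave every gene the same biological coefficient of variation, 0.0685, where that of CYGB in the data was 0.2585. It led to 196 called genes, against 11090 in the data. These rates may therefore not hold for genes with few reads or where most genes move. Total counts of 29637189 to 37278703 set how low a level can be read, with 3 reads equal to between 0.0805 and 0.101 CPM before TMM scaling. Alternatives were DESeq2 1.42.0, other size factors and filters, a replicate block, a fold threshold, leaving out each library, another pseudocount for log2(FPKM + 1) with limma 3.58.1, and another measure of likeness.

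The members, gene lists and tests were chosen with earlier results of these data known. The genes named were MB and CYGB, the globins with reads, in each list up to 4 called genes with the largest fold change (8 in heme synthesis, heme breakdown and the cytochrome b5 system) and up to 2 abundant genes that did not pass, the 5 genes closest to each member, genes that overlap or neighbour them, and VEGFA and CA9. Items withheld from this text are not reported here, and the counts of the heme synthesis list leave them out. EPAS1, ARNT, MEF2A, MEF2D, CYP26A1, PTGS1, CYP1A1, BPGM, OR51B5, MCM5, SPHK1, SNHG16, UBE2O, RBFOX2 and the markers given for being abundant, near 0 or too low to test were named after their values were seen. NFATC3, CREBBP, ESRRA, SP3, TH, ABAT and CYP4F12 were also named after their values were seen. Coordinates are from GENCODE v29 and upstream sequences from RefSeq.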

Additional observations from a re-analysis of the deposited data

How the results depend on the processing

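MB kept its direction throughout, with a log2 fold change of 6.24 to 6.47 when single libraries were left out and of 6.29 to 6.36 under the other settings. It had no value where 10 counts in every library were required, because its normoxia counts did not pass. CYGB ranged from −0.81 to −0.16 when single libraries were left out and reached 1.51 only when its reads were summed with those of PRCD, an alternative chosen after seeing the data. The PRCD reads set the direction of that sum. On the log2(FPKM + 1) scale the difference was 3.37 for MB and −0.08 for CYGB. With a pseudocount of 0.1 it was 5.58 and −0.31, since 1 is large beside MB in normoxia and beside CYGB. With a fold threshold of 1 on the log2 scale, 4338 genes (30.4%) were called in place of 11090, with 1 in heme synthesis, 2 in heme breakdown, 6 carriers, 1 in the cytochrome b5 system, 3 in the nitric oxide list, 5 regulators, 2 mesenchymal, 1 erythroid and 7 squamous markers. With 10 counts required in every library, fewer low genes were tested and the calls came to 1 globin, 3 nitric oxide genes, 1 fatty acid binding gene and 1 muscle marker. Leaving out single libraries gave 1 to 2 called globins and 10669 to 11390 called genes. With Pearson correlation as the measure of likeness, 0 of the 5 genes closest to MB and 1 of the 5 closest to CYGB were kept. Same-numbered libraries of the groups did not deviate together (correlations of 0.018, −0.069 and 0.001), so the numbers do not pair them. A replicate block called 10875 genes in all and gave 6.32 for MB and −0.48 for CYGB. In the lists it lost PPOX (adjusted p = 0.058) and FLVCR2 (0.079) and gained CYB5RL (0.0473). Over all alternatives without a fold threshold, 8 list genes lost a call at least once in a fit that tested them, 5 others of those tested gained one, and none that was called changed sign. HBG1, LUM and TNNT2, too low to test before, were called with no filter on low counts. The genes that lost a call were PPOX, FLVCR2, HBG2, ARG2, RGS5, SP3, CYB5R3 and KRT5. Requiring 10 counts in every library left 9 called list genes untested, which were CSPG4, FABP3, FABP6, GUCY1A1, HBG2, NOS3, RYR1, TNNC1 and TNNT3. It also moved the fold changes of shared genes by a median of 0.077 on the log2 scale, and using no filter moved them by −0.041. The size of small fold changes therefore depends on the setting. Depth limits CYGB, at 14 to 53 reads per library, and MB in normoxia, at 6 to 10.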

Other observations

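CYGB also carries the annotations fatty acid oxidation and cellular oxidant detoxification, which MB does not. Without CYGB, 7 genes of fatty acid oxidation were tested, of which 2 were called higher and 4 lower, with a median log2 fold change of −0.20. Among 45 tested genes of cellular oxidant detoxification, 19 were called higher and 19 lower, with a median of 0.04 beside 0.023 over all genes. These are counts beside a background in which 77.8% of genes were called.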
